A study of Mus musculus with 6 samples.

Results

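The 8 genes described here belong to the tripartite motif (Trim) family: Trim34a, Trim5, Trim12a, Trim30a and Trim30d, which lie in a cluster on mouse chromosome 7, and Trim21, Trim45 and Trim2, which lie outside it. They were chosen by gene symbol, as all probe sets annotated to any of these genes, and are 8 of the 987 genes that have a probe set with a single symbol in the deposited table. RefSeq holds 68 Trim genes, and these 8 are all those with such a probe set in the table. They are read by 15 of its 1382 probe sets, 10 for clustered and 5 for dispersed genes. RNA from whole uteri of female mice, taken before implantation at 3.5 days post coitum, had been hybridised to Affymetrix expression arrays. Mice with intact floxed Stat3 alleles (Stat3 f/f, 3 arrays, replicates 1, 2 and 4) were compared with mice in which these alleles were deleted (Stat3 d/d, 3 arrays, replicates 1, 2 and 3). The labels used here give no Cre driver, strain or age for either group, and do not say whether an array came from a single animal, so the spread between arrays may be technical.

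Trim proteins carry a RING finger, B-boxes and a coiled coil, and most act as ubiquitin ligases. The C-terminal domain sets what a family member recognises. Trim5, Trim30a, Trim30d, Trim34a and Trim21 end in a B30.2 (SPRY) domain, found in many Trim proteins of innate immunity. Trim2 ends in NHL repeats and Trim45 in a filamin-type domain, and the C-terminal end of Trim12a was not examined. Many of the first kind are induced by interferon. In rodents the Trim5-related genes on chromosome 7 have multiplied by tandem duplication, so that neighbours are close paralogs. Stat3 encodes a transcription factor activated by cytokines of the interleukin 6 family, and it also bears on the strength of interferon responses.

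In the RefSeq gene order of assembly GRCm38.p6, the segment from Trim6 to the pseudogene Trim30e-ps1 holds 11 Trim genes among 21 annotated genes. Their order is Trim6, Trim34a, Trim5, Trim12a, Trim34b, Trim12c, Trim30b, Trim30c, Trim30a, Trim30d and Trim30e-ps1. Of these, 5 have a probe set of their own in the table, and the others were not analysed here. Trim21 is on chromosome 7 as well, but 130 annotated genes separate it from Trim6. Trim45 and Trim2 are both on chromosome 3.

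Promoter sequence was examined because most probe sets of the clustered genes were higher in Stat3 d/d. RefSeq windows of GRCm38.p6, from 250 bases before to 50 after each annotated start, were found for all 8 genes, 13 windows in all. They were searched on both strands for GAAANNGAAA, the core of the interferon-stimulated response element bound by interferon regulatory factors, and for TTCNNNGAA, the palindrome bound by STAT dimers. The matches to the first are given in stretches of 30 bases, 5′ to 3′ on the gene's own strand, with the matched bases in capitals. TTTC pairs mark a match on the opposite strand.
Trim34a, chr7:104244457-104244486, plus strand: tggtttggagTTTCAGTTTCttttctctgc
Trim5, chr7:104288136-104288165, minus strand: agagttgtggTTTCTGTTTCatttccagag
Trim12a, chr7:104315466-104315495, minus strand: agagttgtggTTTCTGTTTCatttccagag
Trim30a, distal start, chr7:104465210-104465239, minus strand: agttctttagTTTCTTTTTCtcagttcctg
Trim30a, proximal start, chr7:104446104-104446133, minus strand: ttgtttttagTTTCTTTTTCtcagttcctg
Trim30d, chr7:104507871-104507900, minus strand: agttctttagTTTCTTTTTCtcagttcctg
Trim21, chr7:102565447-102565476, minus strand: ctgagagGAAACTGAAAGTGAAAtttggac
Trim2, 1 of 5 starts, chr3:84212791-84212820, minus strand: tcagctttggTTTCCTTTTCtctaagacag

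All 6 windows of the clustered genes held the GAAANNGAAA core, and so did that of Trim21, with 2 matches that overlap each other. In Trim2 it was in 1 of 5 windows, and in Trim45 in none. Of the other Trim genes of the segment, Trim12c had 1 match, and Trim6, Trim34b, Trim30b and Trim30c had 0. For comparison, 3.44% of the 32851 windows of this length in the RefSeq table held it. The 6 clustered windows are not independent, as neighbouring paralogs share promoter sequence, so their count cannot be weighed against this share. Among genes of the deposited table it was in 9.06% of the windows of genes higher in Stat3 d/d on all their probe sets, and in 1.63% of those of genes lower on all of them. Both sets hold Trim genes described here, with their matches. For genes with a probe set at least 4-fold higher, it was in 12 of 51 windows (23.5%). Trim34a, Trim12a, Trim30a and Trim30d are among these genes, and all their windows are among the matching ones. TTCNNNGAA was in 8.3% of all windows, in 0 of the 6 windows of the clustered genes and in that of Trim45. A match says only that these letters stand in the window, and no match that they do not. Binding was not measured.

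The windows also show how alike the neighbours are. Those of Trim5 and Trim12a share an unbroken run of 241 bases, and their matched stretches are identical over all 30. The distal Trim30a window and that of Trim30d share a run of 118 bases, with identical matched stretches too. The proximal Trim30a stretch differs from the distal one at 4 of 30 bases. The match begins 36 bases before the distal Trim30a start, 41 before that of Trim30d and 49 before that of Trim5. Elsewhere it begins after the annotated start: by 10 bases in Trim34a and Trim12a, and by 2 at the proximal Trim30a start. In Trim21 the first match begins 13 bases after the start, and in Trim2 the match begins 28 after it. The 100 bases before the start of Trim30a (chr7:104465194-104465293, minus strand) and Trim30d (chr7:104507850-104507949, minus strand) are given to show the shared run.
Trim30a: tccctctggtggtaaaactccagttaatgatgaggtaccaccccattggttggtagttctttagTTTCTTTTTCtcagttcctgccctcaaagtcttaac
Trim30d: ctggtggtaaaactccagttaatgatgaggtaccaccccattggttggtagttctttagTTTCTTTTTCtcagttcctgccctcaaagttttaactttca

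The deposited table had been selected on the comparison between the 2 groups. All 1382 probe sets have arithmetic group means at least 1.5-fold apart and groups that do not overlap, and 100% of them passed an adjusted p of 0.05 in limma. That all 15 Trim probe sets passed therefore says nothing about them, and a Trim gene outside the table cannot be called unchanged. Values are deposited intensities on a linear scale, from 2.47 to 4352 over the table. Changes are on the log2 scale, Stat3 d/d minus Stat3 f/f. The median change of all probe sets was 0.75, and centring each array on its median lowers it to 0.27. Array medians of the table were 23.7 to 26.0 in Stat3 f/f and 34.2 to 35.7 in Stat3 d/d. As the table is a selected part with 67.4% of probe sets higher, a difference in scaling cannot be told apart here from the selected changes. Median centring or quantile normalization of this table may remove either, so a call lost under them does not show that a rise came from scaling. Stat3 itself, read by 2 probe sets, was lower on all Stat3 d/d arrays: 101 to 131 on the brighter one, against 243 to 356 in Stat3 f/f. Where these probe sets lie relative to the deleted part was not examined.

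The clustered genes rose in Stat3 d/d, with 1 probe set as an exception. Of their 10 probe sets 9 were higher and 1 lower, against 67.4% higher and 32.6% lower over the table. The median change of the 10 was 1.86 (range -0.70 to 3.59), or 3.64-fold, against 0.75 for all probe sets. At least 4-fold rises were seen on 5 of the 10, where the table has 6.87%, and at least 2-fold rises on 7, where it has 32.2%. The dispersed genes went both ways. Trim21 rose and all 4 probe sets of Trim45 and Trim2 fell, with a median of -0.60 over the 5, none at least 2-fold in either direction (9.99% of the table was at least 2-fold lower). The medians of the clustered and dispersed probe sets lie 2.46 apart. This is a description, with no test, as probe sets of neighbouring paralogs are not replicates. Averaged over the 10 clustered probe sets, the log2 intensity was 2.85, 2.61 and 2.73 on the Stat3 f/f arrays and 4.46, 4.74 and 4.54 on the Stat3 d/d arrays. Over the 5 dispersed probe sets it was 7.15, 7.0 and 7.51 against 6.82, 6.87 and 6.94. The clustered mean was higher on every Stat3 d/d array. The selection of the table had already separated the groups on each probe set, so this separation says nothing further about the cluster.

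**Figure D1:**
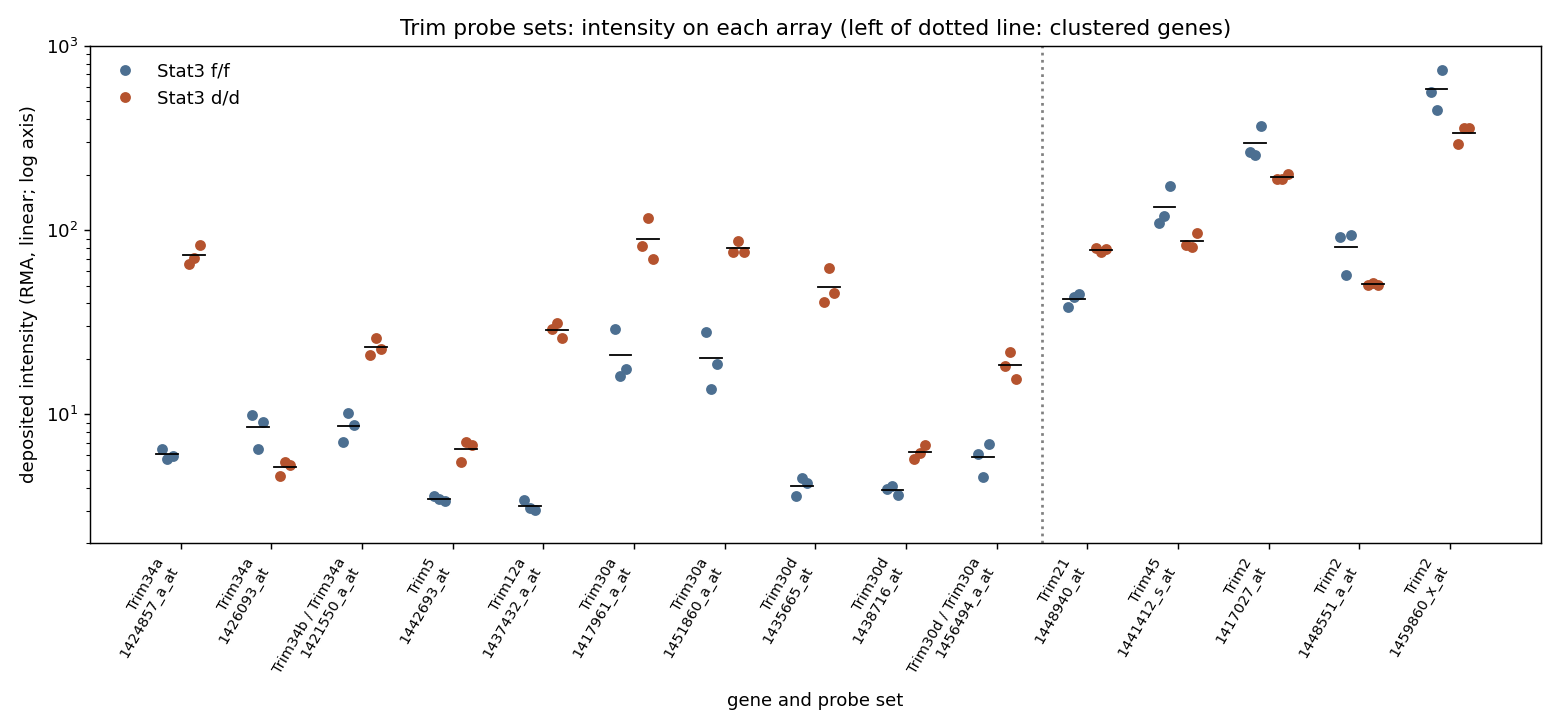
Deposited intensity (log axis) of the 15 Trim probe sets on each of the 3 Stat3 f/f and 3 Stat3 d/d arrays, with a short bar at each group mean and a dotted line between clustered and dispersed genes. In Trim34a, Trim12a and Trim30d the Stat3 d/d points of 1 probe set stand about 9 to 12 times above the Stat3 f/f points, while Trim45 and Trim2 lie lower in Stat3 d/d.

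Trim34a, a B30.2 member whose family relatives restrict retroviruses, gave a rise as large as that of Trim30d, within their errors, and also the only clustered fall. Probe set 1424857_a_at read 6.50, 5.72 and 5.95 in Stat3 f/f and 65.8, 70.5 and 82.8 in Stat3 d/d, so all Stat3 d/d arrays lay far above the Stat3 f/f ones. The change was 3.59 (SE 0.18), or 12.02-fold, with a limma adjusted p of 1.62e-07. It ranks 10 among all rises of the table. Probe set 1426093_at read 9.96, 6.46 and 9.08 in Stat3 f/f and 4.62, 5.52 and 5.30 in Stat3 d/d. Its change was -0.70 (SE 0.21; adjusted p = 0.00700, limma), near the low end of the intensities on all arrays. In Stat3 f/f the rising probe set 1424857_a_at was dimmer still, with 12.4% of the table below its mean against 21.3% for 1426093_at. Another probe set, 1421550_a_at, is annotated to both Trim34b and Trim34a and cannot be given to either. It read 7.06, 10.2 and 8.75 in Stat3 f/f and 20.9, 26.0 and 22.6 in Stat3 d/d, a rise of 1.43 (SE 0.20). Thus Trim34a, and with it the pair Trim34a and Trim34b, is read at 3 different changes by 3 probe sets.

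Trim30d showed the same kind of disagreement in size, with no change of sign. Probe set 1435665_at read 3.58, 4.49 and 4.23 in Stat3 f/f and 40.6, 62.0 and 45.5 in Stat3 d/d. That is a change of 3.57 (SE 0.21), or 11.9-fold, at an adjusted p of 3.25e-07 (limma). Probe set 1438716_at read 3.94, 4.09 and 3.63 in Stat3 f/f and 5.71, 6.13 and 6.80 in Stat3 d/d. These groups are close, and the change was 0.67 (SE 0.17), which is below the median of the table. Its adjusted p of 0.00394 (limma) became 0.342 after median centring, where the change was 0.19, and 0.361 after quantile normalization, where it was 0.17.

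Trim30a, a protein known to dampen Toll-like receptor signalling to NF-κB by way of the adaptors Tab2 and Tab3, was read alike by both of its probe sets. Probe set 1417961_a_at gave 29.0, 16.1 and 17.7 in Stat3 f/f and 82.1, 116 and 69.8 in Stat3 d/d. Probe set 1451860_a_at gave 28.1, 13.7 and 18.8 in Stat3 f/f and 76.2, 87.3 and 76.1 in Stat3 d/d. On both, Stat3 f/f replicate 1 was the highest of its group and Stat3 d/d replicate 2 the highest of the other. The changes were 2.11 (SE 0.26) and 2.04 (SE 0.25), or 4.32-fold and 4.13-fold. A further probe set, 1456494_a_at, is annotated to both Trim30d and Trim30a. It read 6.06, 4.55 and 6.87 in Stat3 f/f and 18.4, 21.7 and 15.6 in Stat3 d/d, a change of 1.68 (SE 0.21). As these paralogs are close, a probe set may take up RNA of both, and the split between them is uncertain.

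Trim12a and Trim5, rodent relatives of the primate restriction factor TRIM5, were read by 1 probe set each. Trim12a (1437432_a_at) read 3.42, 3.08 and 3.01 in Stat3 f/f, close to the lowest intensity of the table, and 29.2, 31.2 and 26.0 in Stat3 d/d. The change was 3.18 (SE 0.17), or 9.07-fold, with an adjusted p of 2.67e-07 (limma). Detection calls were not used here, so whether Trim12a stood above background in Stat3 f/f is not known, and the fold rests on values at the dim end. The same holds for the most raised probe sets of Trim30d and Trim34a. Trim5 (1442693_at) read 3.58, 3.46 and 3.38 in Stat3 f/f and 5.48, 7.05 and 6.81 in Stat3 d/d. Trim12a and Trim5 were thus at the dim end in Stat3 f/f, and Trim5 remained there in Stat3 d/d. The change of Trim5 was 0.88 (SE 0.18), or 1.85-fold, with a 95% confidence interval of 0.49 to 1.28, against 2.80 to 3.56 for Trim12a. After median centring Trim5 stood at 0.40 (adjusted p = 0.0747, limma) and after quantile normalization at 0.40 (adjusted p = 0.0674, limma). These are the genes whose promoter windows share the run of 241 bases.

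**Figure D2:**
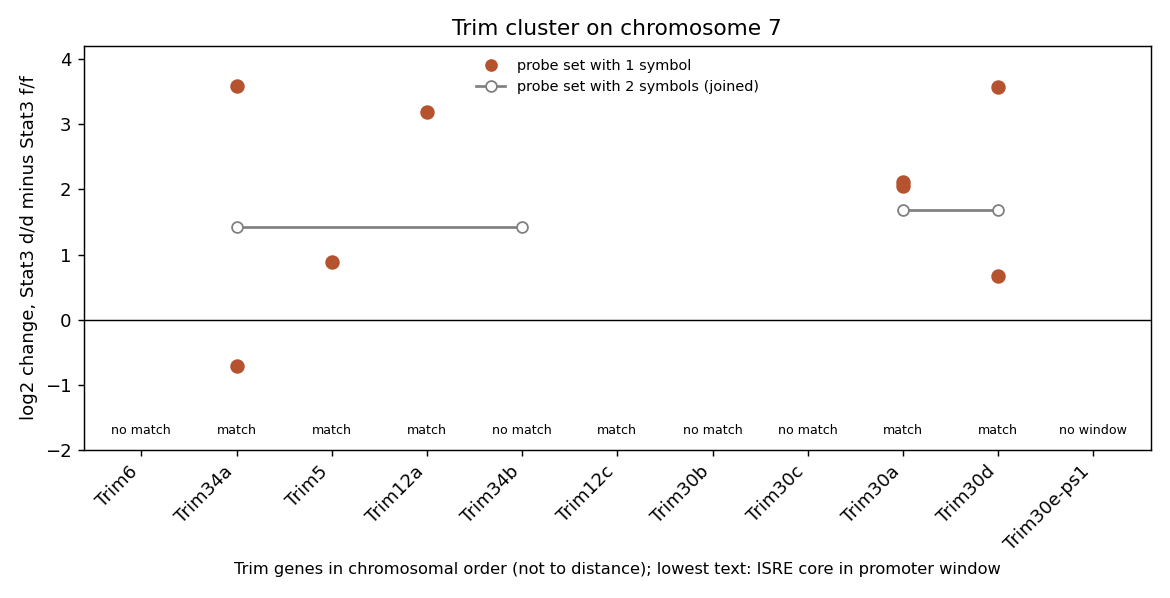
Log2 change (Stat3 d/d minus Stat3 f/f) of each probe set, plotted at its gene in the order of the 11 Trim genes along the chromosome 7 segment, with grey lines joining the genes that share a probe set; the lowest text gives whether the promoter window holds the interferon-stimulated response element (ISRE) core. The 5 genes with a probe set of their own all have a match, Trim34a and Trim30d are each read at clearly different changes, and the 2 Trim30a probe sets coincide at 2.11 and 2.04.

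Disagreement between probe sets of a gene was measured within each array, as the log2 difference of its most and least raised probe sets. For Trim34a this difference went from -0.47 ± 0.25 in Stat3 f/f to 3.82 ± 0.15 in Stat3 d/d (mean ± SD, n = 3 arrays each), and for Trim30d from 0.07 ± 0.19 to 2.97 ± 0.32. For Trim30a it was 0.06 ± 0.16 and 0.13 ± 0.27, and for Trim2 -0.97 ± 0.14 and -0.79 ± 0.15. These values are a description, with no test: the pairs were picked by their changes, and the selection of the table had already separated the groups on each probe set. The letter before "at" in a probe set name is Affymetrix's mark: "a" for several transcripts of a gene, "s" and "x" for sequence shared between genes. Where in the transcripts each probe set lies was not examined.

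**Figure D3:**
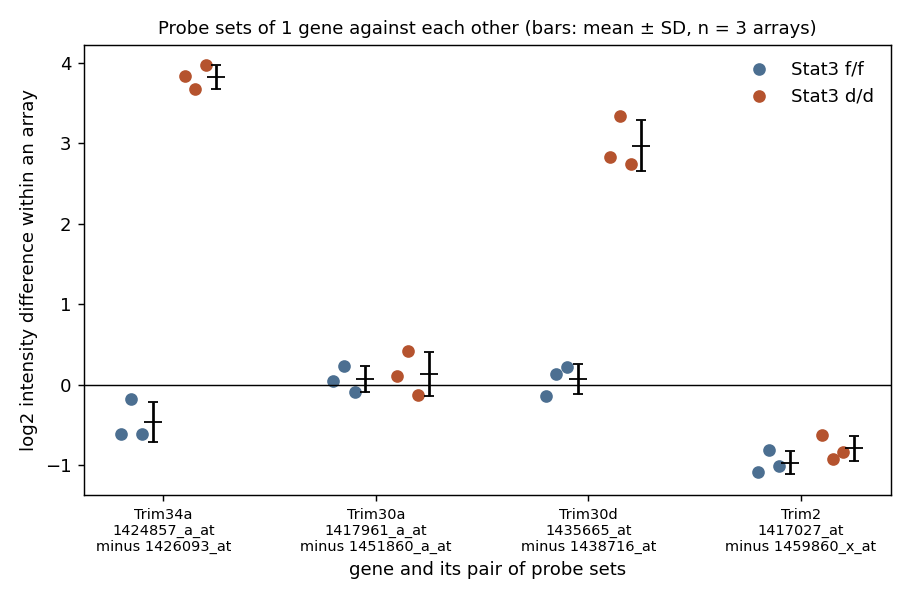
Log2 difference between the most and least raised probe sets of Trim34a, Trim30a, Trim30d and Trim2 on each array, with the mean and SD of the 3 arrays of a group beside the points. The group mean goes from -0.47 to 3.82 for Trim34a and from 0.07 to 2.97 for Trim30d, while it moves by 0.07 for Trim30a and 0.18 for Trim2.

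Of the dispersed genes, Trim21 rose. It encodes a cytosolic receptor for antibody Fc that directs antibody-coated particles to the proteasome. Probe set 1448940_at read 38.5, 43.3 and 44.7 in Stat3 f/f and 79.7, 76.4 and 78.5 in Stat3 d/d, so the arrays of each group were close together and the groups apart. The change was 0.89 (SE 0.17), or 1.86-fold, at an adjusted p of 0.000893 (limma). It exceeds the median of the table by little, and after median centring it was 0.41 with an adjusted p of 0.0566 (limma), no longer under the threshold. After quantile normalization it was 0.45 (adjusted p = 0.0375, limma).

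Trim45 and Trim2 fell. Trim45, a ligase described as a restraint on MAP kinase and NF-κB signalling, read 109, 120 and 173 in Stat3 f/f and 82.7, 81.4 and 96.9 in Stat3 d/d on probe set 1441412_s_at. The change was -0.60 (SE 0.21; adjusted p = 0.0163, limma). Stat3 f/f replicate 4 was the highest array, and without it the change was -0.40 (adjusted p = 0.0663, limma). The call was also lost without Stat3 d/d replicate 2 (-0.55, adjusted p = 0.0548, limma) and without variance moderation (adjusted p = 0.0515, limma).

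Trim2, a ligase best known for binding neurofilament light chain in neurons, was read by 3 probe sets that moved together. Probe set 1459860_x_at read 562.0, 449 and 741 in Stat3 f/f and 293, 359 and 358 in Stat3 d/d, a change of -0.77 (SE 0.22; adjusted p = 0.00577, limma). Probe set 1417027_at read 264, 256 and 366 in Stat3 f/f and 190, 190 and 201 in Stat3 d/d, a change of -0.59 (SE 0.19). Probe set 1448551_a_at read 91.9, 57.0 and 94.3 in Stat3 f/f and 50.2, 51.4 and 50.6 in Stat3 d/d, a change of -0.64 (SE 0.22), and without Stat3 f/f replicate 1 its adjusted p was 0.0534 (limma), as it was without variance moderation (0.0534). On each, the Stat3 d/d arrays were nearer to each other than the Stat3 f/f arrays. Stat3 f/f replicate 4 was the highest Stat3 f/f array on all 5 dispersed probe sets, Trim21 included, and on 1 of the 10 clustered ones. Without it, the dispersed median was -0.42.

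**Figure D4:**
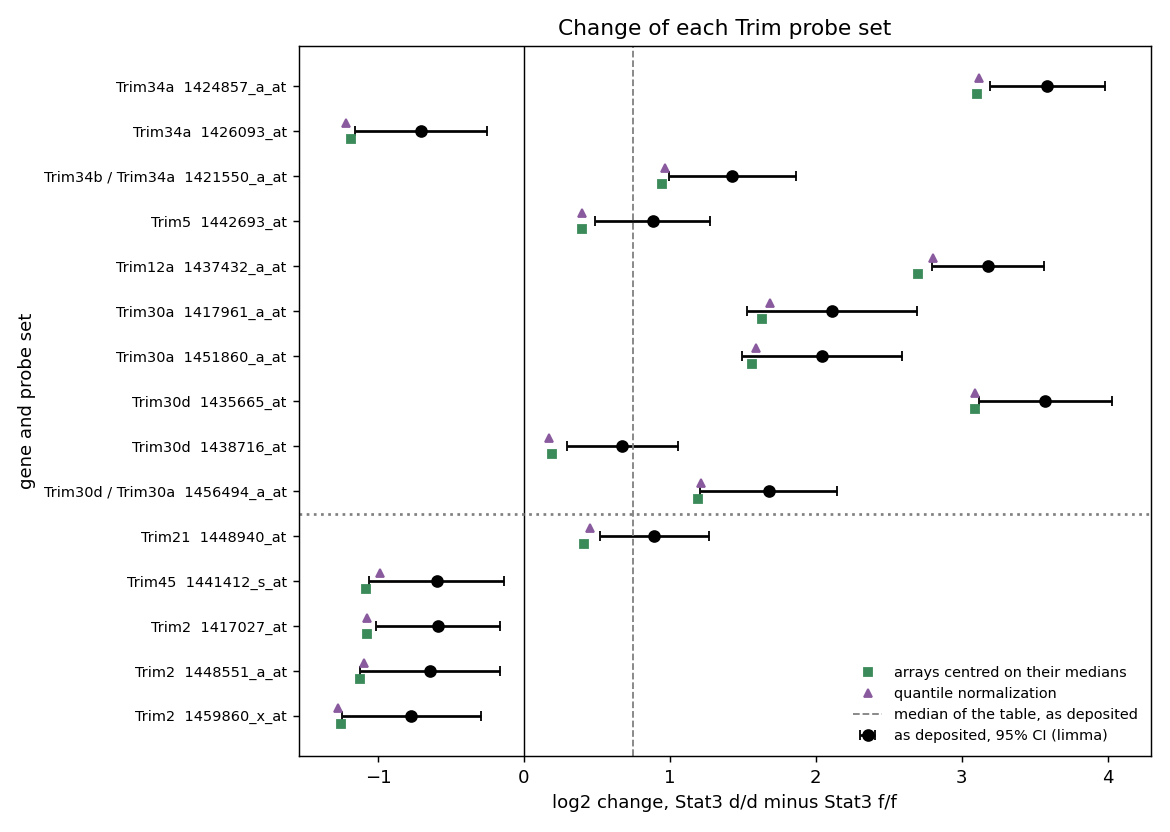
Log2 change of each Trim probe set with its 95% confidence interval (limma, black), and the same change after median centring (green squares) or quantile normalization (purple triangles). The largest rises of Trim34a, Trim12a, Trim30a and Trim30d stay well above 0 under all 3 scalings, while those of Trim5, Trim21 and the second Trim30d probe set shrink to between 0.17 and 0.45. The falling Trim34a probe set lies below 0 under all 3 scalings.

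When 45000 tests were assumed in place of the size of the table, about the number of probe sets of a whole mouse array, 39.0% of the table passed (29.2% as higher and 9.84% as lower). Of the clustered probe sets 8 of 10 passed, all higher, and the second probe sets of Trim34a and Trim30d did not. Of the dispersed ones Trim21 passed (adjusted p = 0.0291, limma) and the 4 probe sets of Trim45 and Trim2 did not, with adjusted p from 0.188 to 0.530. Centred on array medians, 32.3% of the table was higher and 32.6% lower past the threshold. The clustered probe sets were then 7 higher and 1 lower, and the dispersed ones 0 higher and 4 lower.

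The profile over the 6 arrays most like that of Trim34a on probe set 1424857_a_at was sought among all named genes other than the 8 Trim genes. Each log2 profile was centred on its mean, and the root mean square distance was used. The 5 nearest such genes were Iigp1 at 0.12, Gbp6 at 0.23, Nlrc5 at 0.29, Tmem267 at 0.35 and Klra8 at 0.39 log2 units. Iigp1 is an immunity-related GTPase, Gbp6 a guanylate-binding protein, Nlrc5 an activator of transcription of MHC class I genes and Klra8 a receptor of natural killer cells. Trim30d (1435665_at) and Trim12a lay at 0.26 and 0.26, between Gbp6 and Nlrc5, and Trim30a at 0.82 on both probe sets. Distance here reflects mainly the size of the change, as every probe set of the table separates the groups.

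Genes around interferon signalling were taken as a list of 50, made of receptors and kinases, transcription factors, ligands, inhibitors, nucleic acid sensors and adaptors, NF-κB partners of Trim proteins and genes of ubiquitin-like conjugation. Of these, 14 were in the table and the others not analysed here, and a gene with several probe sets was represented by the brightest. In Stat3 d/d 13 of the 14 rose and 1 fell, where 67.4% of the table is higher, with a median change of 0.78, close to that of the table (0.75). Median centring left 5 higher and 1 lower past the threshold, against 32.3% and 32.6% of the table. No theme is read from these counts. No ligand of the list was in the table. Among transcription factors, Irf7, the amplifier of type I interferon induction, rose from 34.3 ± 10.8 to 104 ± 24.4 (SD, n = 3; change 1.63, SE 0.27). Irf8 and Irf9 stood at 0.88 and 0.60, and Irf3 at -0.67. Usp18, which restrains signalling at the type I receptor, rose from 24.9 ± 7.63 to 96.0 ± 17.2, a change of 1.99 (SE 0.26). Of nucleic acid sensors, Zbp1 rose by 1.87 and Ifih1 by 1.41, while Dhx58 and Tlr3 stood at 0.78 and 0.79. Ddx58 stood at 0.65 on its brighter probe set and at 1.16 on the other, and after median centring at 0.17 (adjusted p = 0.432, limma) and 0.68 (adjusted p = 0.00551, limma), so the count of 5 depends on which of them stands for the gene. The kinase gene Jak2 stood at 0.69 and Tnfaip3, an inhibitor of NF-κB, at 0.75. Herc6 and Uba7, which conjugate the ubiquitin-like protein Isg15, stood at 1.12 and 0.76.

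Leukocyte transcripts were higher in Stat3 d/d, as were most probe sets of the clustered Trim genes, several of which are expressed in immune cells. In a table where 67.4% of probe sets are higher and the median change is 0.75, all 4 pan-leukocyte markers were present and higher, with summed intensities of 281 to 447 in Stat3 f/f and 665 to 1012 in Stat3 d/d. Of 10 macrophage and dendritic cell markers 5 were in the table, all higher (sums 265 to 398 and 684 to 1489). Of 11 natural killer and T cell markers 7 were, all higher (sums 72.3 to 121 and 279 to 448). Their medians were 1.14, 1.36 and 1.45. After median centring 2 of the 4, 4 of the 5 and 7 of the 7 were higher past the threshold, against 32.3% of the table. Within the Stat3 d/d group these markers were highest on replicate 1, apart from Klrd1 and Eomes, which were highest on replicate 2. Of the 10 clustered Trim probe sets, 8 were highest on replicate 2 and 6 were lowest on replicate 1. Most markers and most clustered Trim probe sets thus peaked on different arrays, but Klrd1 and Eomes peaked where most of these Trim probe sets did. Some clustered Trim probe sets, those of Trim30a included, were lowest on the array where most markers were lowest. No conclusion is drawn from this order, as the arrays are few and probe sets of neighbouring paralogs are not replicates. No B cell, epithelial, smooth muscle, endothelial or embryo marker of the lists was in the table. Dcn, the only stromal marker present, and the progesterone receptor gene Pgr, which marks uterine tissue, were lower (changes of -1.12 and -0.84). The part of leukocytes in the Trim rises was not tested. In whole uterus more cells of a type cannot be told apart from more RNA per cell, nor fewer cells from less RNA per cell.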

How the data were processed

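The authors deposited 1 table of probe set intensities for the 6 arrays. The submitters' processing notes name RMA, with no version. The sources used here give neither build, annotation nor the selection of probe sets. RMA yields log2 values, so the deposited linear intensities had been converted back. Here log2(intensity) was taken and the groups were compared with limma 3.58.1 under R 4.3.3 (lmFit and eBayes without covariates). P-values were Benjamini-Hochberg adjusted over the whole table, at a threshold of 0.05. The fit was tested on simulated data. Of the probe sets, 1191 had 1 symbol in the platform annotation, 57 several and 134 none here; all 8 members' gene identifiers matched RefSeq (GRCm38.p6). The number of arrays limits the precision. Members, lists and motifs were chosen with earlier results of these data known. Named besides the members were Stat3, list genes in the table and the 5 nearest profiles. Alternatives were other scalings, log2(intensity + 1), a filter on dim probe sets, other variance models, array weights, 45000 assumed tests, the replicate number as a block and leaving out each array. Those restricted to probe sets with 1 symbol or moving Trim21, and all for pairs of probe sets, were chosen after the data were seen. Figures used matplotlib 3.10.9.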

Additional observations from a re-analysis of the deposited data

How the results depend on the processing

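All probe sets of the table passed the threshold; with median centring 898 did (447 higher, 451 lower), with quantile normalization 890 (439 and 451), with 45000 assumed tests 539, and without single arrays 1361 to 1378. Of the 15 Trim probe sets 9 passed with 45000 assumed tests, 13 without variance moderation and 14 to 15 without single arrays. The clustered median of 1.86 became 1.38 with median centring, 1.40 with quantile normalization, 2.11 without the dimmest probe sets (10 Trim probe sets left), 2.08 over probe sets with 1 symbol, and 1.67 to 2.02 without single arrays. The dispersed median of -0.60 became -1.08 and -1.07 with these scalings, and -0.68 to -0.42 without single arrays. Their difference of 2.46 became 2.71 without the dimmest probe sets, 2.68 over probe sets with 1 symbol, and 2.31 to 2.68 without single arrays. The pair difference of Trim34a was 4.0 with log2(intensity + 1), against 4.29, and 4.22 to 4.44 without single arrays. That of Trim30a, 0.07, changed sign without Stat3 f/f replicate 4 (-0.0097) or Stat3 d/d replicate 2 (-0.074), ranging from -0.074 to 0.20. Those of Trim30d and Trim2 ranged from 2.71 to 3.01 and from 0.10 to 0.26. The cause of these shifts was not tested. Replicate numbers 1 and 2 occur in both groups but pair nothing in the labels, and deviations of same-numbered arrays correlated at 0.09 and 0.03. With the replicate block 12 of the 15 Trim probe sets passed, without those of Trim45 and 2 of Trim2, and the clustered median was 1.99.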
